A study of Homo sapiens and Mus musculus with 56 samples.

Results

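A set of 10 genes of the Notch pathway was followed across 5 human glioblastoma lines, with and without an inhibitor of the MET kinase, on human and on mouse arrays. They are the receptors NOTCH1, NOTCH2, NOTCH3 and NOTCH4, the ligands JAG1 and DLL4, and the transcriptional targets HES1, HEY1, HEY2 and HEYL. The genes were chosen by pathway membership with earlier results of the same arrays known, V-4084 differences and levels by line among them, and no threshold on a value is recorded for that choice. Their differences and levels are therefore given as a description. The adjusted p-values come from fits over all genes and are not independent evidence about these 10. All 10 symbols were measured on the human platform, among 18417 genes in all, and all 10 in mouse spelling on the mouse platform, among 19938 genes. No gene was removed by a filter on low values.

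According to the labels, the human arrays hold cultured cells of U87M2, U118, SF295, DBM2 and U251M2, and the mouse arrays hold tumours that the same lines formed under the skin of the flank of nude mice. Cells received V-4084 or DMSO for 7 days. The compound came from a 0.01 M stock, and the labels do not state what it was diluted to. Mice received V-4084 at 30 mg/kg or its vehicle over the same time (MC 400 at 0.5% and Tween 80 at 0.05%), and tumours were started from 500000 cells. V-4084 is labelled as a small molecule selective for MET, the receptor of hepatocyte growth factor. Groups held 3 arrays each, except that SF295 cells had 2 with V-4084 and 2 with DMSO, U251M2 tumours had 2 with V-4084, and SF295 tumours had 2 with vehicle. Every group is a tumour line or a tumour grown from one, and nude mice lack a normal T cell compartment.

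Notch receptors are membrane proteins that bind ligands of the Jagged and Delta-like families on a neighbouring cell. Binding exposes the receptor to cleavage by an ADAM protease and then by gamma-secretase, and the released intracellular domain joins the DNA-binding protein RBPJ and a Mastermind co-activator to switch on HES and HEY genes, which encode transcriptional repressors. In glioblastoma the pathway is known for its link with stem-like tumour cells, and in tumour vessels DLL4 on endothelial cells restrains sprouting.

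Because RBPJ is the DNA-binding step between the receptors and their targets, the stretches before the transcription starts were searched for its core letters, TGGGAA, on both strands. The RefSeq promoter table, on GRCh38.p14, held 9 of the 10 genes, all but HEY1, and the 250 bases before each start were read. The core stood in 3 of these 9 stretches, all of targets, and in none of those of the 4 receptors and 2 ligands. Over all 27305 promoters in the table, 21.1% held the core in the same window. The longer form GTGGGAA, which contains the core, stood in 5.5% of all promoters and in each of these 3. A match of letters is a description and not a bound site, and a stretch without one says nothing of the factor. The 3 stretches that hold the core are printed from 5′ to 3′ on the strand of the gene, with the core or its reverse complement in capitals. HES1 is read from chr3:194135898-194136147 on the plus strand, with cores that begin at -84 and -70 counted from the start. HEY2 is read from chr6:125749382-125749631 on the plus strand, with 1 core at -213. HEYL is read from chr1:39639644-39639893 on the minus strand, with cores at -178 and -99.
HES1: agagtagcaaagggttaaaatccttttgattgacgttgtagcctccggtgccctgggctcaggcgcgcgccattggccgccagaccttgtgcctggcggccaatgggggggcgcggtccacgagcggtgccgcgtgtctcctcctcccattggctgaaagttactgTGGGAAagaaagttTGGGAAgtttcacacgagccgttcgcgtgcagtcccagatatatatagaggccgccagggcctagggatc
HEY2: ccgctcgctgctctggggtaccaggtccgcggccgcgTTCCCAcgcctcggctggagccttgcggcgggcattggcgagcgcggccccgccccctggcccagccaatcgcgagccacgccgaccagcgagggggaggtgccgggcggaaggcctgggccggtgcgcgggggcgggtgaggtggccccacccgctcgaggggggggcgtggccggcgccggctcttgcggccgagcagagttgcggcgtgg
HEYL: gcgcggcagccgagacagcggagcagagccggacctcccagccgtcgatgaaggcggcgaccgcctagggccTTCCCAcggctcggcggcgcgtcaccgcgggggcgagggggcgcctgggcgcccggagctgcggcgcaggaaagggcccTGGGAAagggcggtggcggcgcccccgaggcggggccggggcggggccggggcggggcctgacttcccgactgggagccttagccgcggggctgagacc
In HES1 both cores run with the gene and lie close together. In HEY2 the single core runs against the gene, and in HEYL there is 1 in each direction.

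Values are log2 probe set intensities as deposited, so a difference of 1 is a doubling, and levels of different genes are not compared. Array medians lay between 6.63 and 6.87 on the human platform and between 6.11 and 6.31 on the mouse platform. The SD over genes was lower on 3 human V-4084 arrays, at 1.75 for DBM2 repeat 2, 1.898 for U251M2 repeat 1 and 1.9 for SF295 repeat 2, against at least 2.03 on the vehicle arrays. In the V-4084 differences and the comparisons between lines, some calls and signs among the 10 genes change without these 3 arrays. Those changes are given beside the results they touch. The labels of 3 human arrays contradict themselves, with DBM2 and V-4084 in the title and SF295 as the cell line, and these arrays were placed by title. They held HGF, the MET ligand, at 5.17 to 5.50, against 5.31 to 5.41 on DBM2 vehicle arrays, while SF295 arrays held it at 10.13 to 10.27 with V-4084 and 9.91 to 10.14 with vehicle. On HGF the 3 arrays thus lay near the DBM2 vehicle arrays and far below all SF295 arrays. Of the glial markers of the labelled cell type, 5 of 10 lay above the median gene of the human platform, at 7.15. Vehicle means of the lines were 11.86 to 12.19 for VIM, 9.84 to 10.60 for CD44 and 7.63 to 9.83 for NES. These lay above that median in all 5 lines, while OLIG2 lay below it in all 5, at 5.60 to 5.90. With vehicle, SOX2, S100B, FABP7, PTPRZ1 and NCAM1 lay above it in U251M2 and below it in U87M2 and U118. GFAP averaged 11.41 in U251M2 with vehicle and 6.50 to 6.73 in the other 4 lines.

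Without V-4084, the lines differed in 7 of the 10 genes on human arrays by limma's F test between the 5 vehicle groups, namely NOTCH1, NOTCH2, NOTCH3, JAG1, HES1, HEY1 and HEY2. A call means an adjusted p under 0.05, with Benjamini-Hochberg adjustment over all genes, and 58.4% of all genes were called in that comparison. The spread between lines was large for JAG1 and for the targets HEY1 and HES1, and small for NOTCH4, DLL4 and HEYL. The median of the 10 ranges, highest minus lowest vehicle mean, was 1.58, beside 0.59 over all genes.

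Among the receptors, NOTCH3 was high in U87M2 alone. Its vehicle level was 9.39 ± 0.19 in U87M2 (SD, n = 3), and in the other lines it was 7.98 ± 0.22 in DBM2, 7.71 ± 0.11 in U118, 7.67 ± 0.01 in SF295 (n = 2) and 7.55 ± 0.09 in U251M2. The 3 U87M2 arrays lay above every other vehicle array, while DBM2 overlapped U118 and U118 overlapped SF295. The range of 1.83 had an adjusted p of 3.82e-11 in limma's F test. NOTCH1 stood out in another line. It was 9.05 ± 0.20 in U251M2, followed by 7.85 ± 0.13 in DBM2, 7.69 ± 0.25 in U87M2, 7.50 ± 0.11 in SF295 and 7.37 ± 0.03 in U118, where U87M2 overlapped both DBM2 and SF295 (range 1.68, limma adjusted p = 2.95e-11). NOTCH2 had an order of its own, with no overlap between neighbours. It was 10.72 ± 0.06 in U118, 10.50 ± 0.05 in U87M2, 9.92 ± 0.11 in U251M2, 9.56 ± 0.19 in SF295 and 9.23 ± 0.02 in DBM2 (range 1.49, limma adjusted p = 1.49e-11). NOTCH4, a receptor best known from endothelial cells, lay between 6.82 and 7.15 in the vehicle means of all lines, and neighbouring lines overlapped throughout (limma adjusted p = 0.149). The 3 receptors that differed therefore each had their highest vehicle mean in a different line.

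Of the ligands, JAG1 had the widest range among the 10 genes. Its vehicle level was 11.08 ± 0.08 in DBM2, 10.43 ± 0.10 in U251M2, 10.01 ± 0.21 in SF295, 9.29 ± 0.17 in U118 and 7.83 ± 0.08 in U87M2 (SD, n = 3, and 2 for SF295). No array of a line overlapped with those of its neighbour in this order, and the range of 3.25 had a limma adjusted p of 3.73e-18. U87M2, which had the highest NOTCH3, thus had the lowest JAG1. DLL4 lay between 6.20 and 6.40 in the vehicle means, with overlap between all neighbours and a limma adjusted p of 0.771.

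The targets did not share one order. HEY1 was 8.88 ± 0.12 in U251M2, 8.36 ± 0.08 in DBM2, 7.66 ± 0.23 in SF295, 6.92 ± 0.09 in U87M2 and 6.32 ± 0.15 in U118, again with no overlap between neighbours (range 2.55, limma adjusted p = 1.42e-16). HES1 was 8.06 ± 0.21 in U251M2, 8.01 ± 0.40 in SF295, 7.84 ± 0.12 in DBM2, 6.76 ± 0.24 in U118 and 5.81 ± 0.05 in U87M2 (range 2.25, limma adjusted p = 3.51e-12). The first 3 of these overlapped, and the U118 and U87M2 arrays lay below them. HEY2 was highest where HES1 was lowest. It was 7.12 ± 0.19 in U87M2, 6.93 ± 0.17 in U251M2, 6.38 ± 0.14 in DBM2, 5.78 ± 0.01 in SF295 and 5.64 ± 0.10 in U118, with overlap between U87M2 and U251M2 (range 1.47, limma adjusted p = 1.25e-10). HEYL lay between 6.74 and 7.19 in the vehicle means (limma adjusted p = 0.111), and without the 3 low-SD arrays, none of them a vehicle array, its adjusted p was 0.0184.

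**Figure D1:**
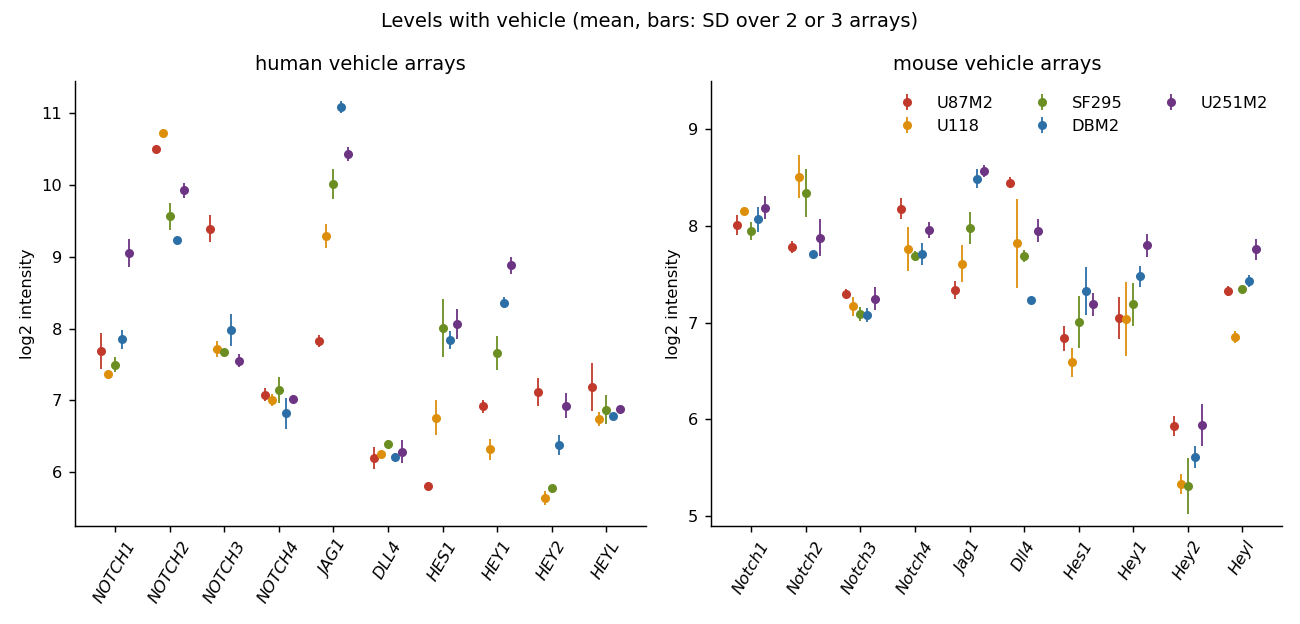
Vehicle levels of the 10 genes on human arrays (left) and mouse arrays (right), in log2 intensity, with 1 point per line for the mean and bars for the SD over 2 or 3 arrays. JAG1 runs between 7.83 in U87M2 and 11.08 in DBM2 on human arrays, and Jag1 has the same lowest line on mouse arrays, at 7.34.

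In U87M2 cells 4 of the 10 genes were called higher with V-4084 and none lower, namely the targets HEY1 and HEY2, the receptor NOTCH3 and the ligand JAG1. In this line 15% of all genes were called, 5.37% of all as higher and 9.62% as lower. All 10 differences were above 0, as were 9799 of all 18417 genes. The median of the 10 was 0.31, beside 0.02 over all genes. The 10 include HES1 at 0.05, which was -0.05 after quantile normalization. After scaling to a common median and median absolute deviation HES1 was at -0.04.

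HEY1 measured 8.56, 8.67 and 8.73 on the 3 V-4084 arrays of U87M2, against 6.82, 6.95 and 6.98 on the vehicle arrays. The groups were separated by more than 1 log2 unit, and the U87M2 arrays with V-4084 lay above every DBM2 array, the line with the second highest vehicle level. The difference was 1.74 (SE 0.11), a 3.34-fold increase, with a limma adjusted p of 2.72e-11. HEY2, a close relative of HEY1, measured 7.83, 7.71 and 7.87 with V-4084, against 7.13, 7.30 and 6.92 with vehicle. All 3 V-4084 values lay above the vehicle values, and the difference was 0.69 (SE 0.13, 1.61-fold, limma adjusted p = 0.000398). The other targets did not pass. HEYL measured 7.73, 7.59 and 7.43 with V-4084, against 7.58, 7.04 and 6.96 with vehicle, with overlapping arrays and a difference of 0.39 (SE 0.16, limma adjusted p = 0.103). Without the 3 low-SD arrays of other lines the HEYL difference kept its size and its adjusted p was 0.0202. HES1 measured 5.79, 6.12 and 5.66 with V-4084, against 5.86, 5.79 and 5.78 with vehicle, a difference of 0.05 (SE 0.17).

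NOTCH3 measured 10.07, 9.99 and 9.84 in U87M2 with V-4084, against 9.57, 9.40 and 9.19 with vehicle. The arrays did not overlap, and the difference was 0.58 (SE 0.14, 1.5-fold, limma adjusted p = 0.00559). Without vehicle repeat 3 the adjusted p was 0.0548. JAG1 measured 8.51, 8.32 and 8.40 with V-4084, against 7.81, 7.92 and 7.77 with vehicle. These arrays did not overlap either, and the difference was 0.57 (SE 0.11, 1.49-fold, limma adjusted p = 0.000615). Even so, every V-4084 array of U87M2 stayed below every array of the other lines for this ligand. The remaining receptors and DLL4 did not pass, with differences of 0.23 for NOTCH1, 0.04 for NOTCH2, 0.01 for NOTCH4 and 0.16 for DLL4.

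Markers of other cell types were measured on the same U87M2 arrays. Of 10 fibroblast genes, which include collagens and other matrix genes that glioblastoma lines can express themselves, 7 were called higher and 0 lower, and all 10 lay above the median gene of the platform. Their mean lay between 9.46 and 9.51 with V-4084 and between 8.31 and 8.73 with vehicle. Of 10 endothelial genes, 1 was called higher and 2 lower, 1 lay above the platform's median gene, and their mean was 6.52 to 6.59 with V-4084 and 6.54 to 6.58 with vehicle. The part of these genes in the Notch differences was not tested.

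**Figure D2:**
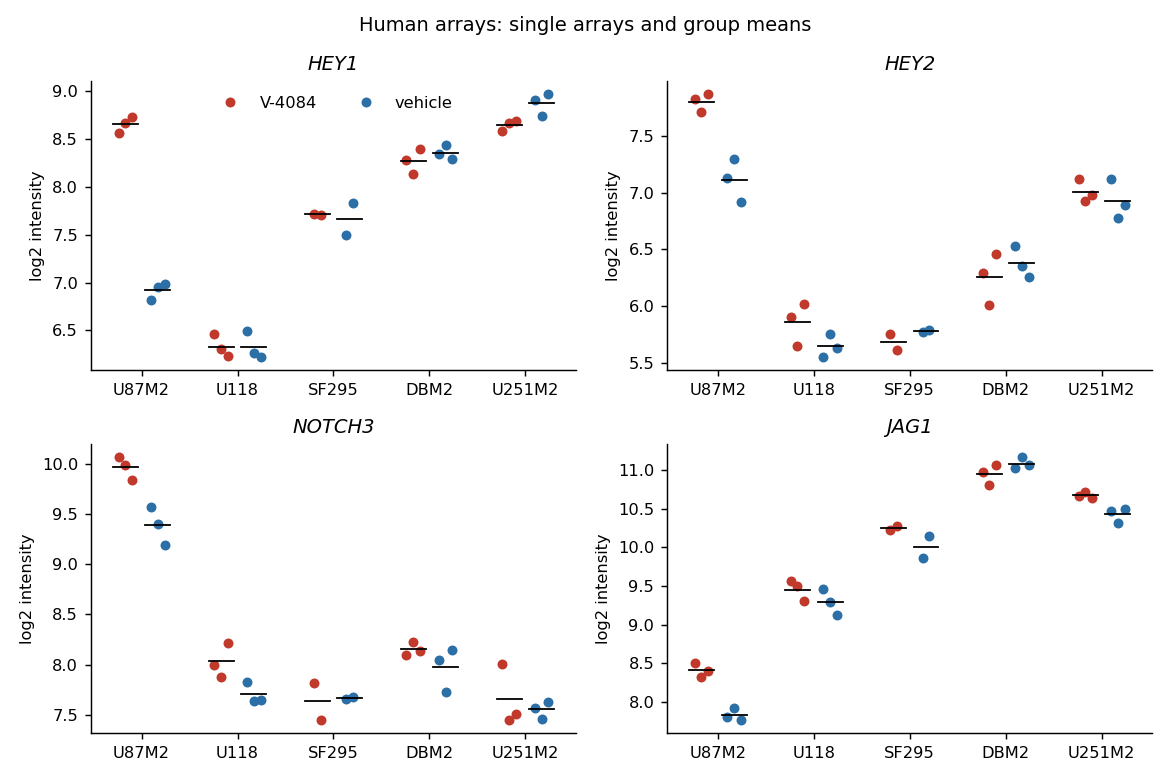
Log2 intensity of HEY1, HEY2, NOTCH3 and JAG1 on single human arrays, with V-4084 left of vehicle in each line and a bar at each group mean. In U87M2 the V-4084 arrays lie above the vehicle arrays for all 4 genes, by 1.74, 0.69, 0.58 and 0.57 on average.

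In the other 4 lines no Notch gene passed on human arrays. In U118, 0 of 10 were called, with 0.755% of all genes called. An unadjusted p under 0.05 was held by 1 of the 10 and by 1868 of all 18417 genes. In SF295, DBM2 and U251M2, 0 of 10 were called and 0% of all genes were. In that order of lines, 1, 0 and 2 of the 10 had an unadjusted p under 0.05. Over all genes these counts were 1581, 4920 and 1110. All 10 differences were above 0 in U118, as were 4 in SF295, 4 in DBM2 and 7 in U251M2. In the same order, 10038, 8446, 10584 and 10247 of all 18417 genes were above 0. The 10 in U118 include HEY1 at 0.01. It was -0.07 after quantile normalization and -0.05 after scaling to a common median and median absolute deviation. NOTCH3 in U118 measured 8.00, 7.88 and 8.22 with V-4084, against 7.83, 7.64 and 7.65 with vehicle. These arrays did not overlap, and the difference was 0.33 (SE 0.14, limma adjusted p = 0.435). JAG1 in U251M2 measured 10.67, 10.72 and 10.64 with V-4084, against 10.47, 10.31 and 10.50 with vehicle, again without overlap (difference 0.25, SE 0.11, limma adjusted p = 0.721). HEY1 pointed the other way in that line. It measured 8.58, 8.67 and 8.69 with V-4084, against 8.91, 8.74 and 8.97 with vehicle (difference -0.23, SE 0.11, limma adjusted p = 0.721), where the V-4084 arrays lay below the vehicle arrays. DLL4 in SF295 measured 6.19 and 5.86 with V-4084, against 6.43 and 6.37 with vehicle (difference -0.38, SE 0.16, limma adjusted p = 0.548).

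The other differences in these lines had unadjusted p-values of at least 0.05. In U118 they lay between 0.01 for HEY1 and 0.30 for HES1. In SF295 they lay between -0.36 for HEYL and 0.24 for JAG1, in DBM2 between -0.15 for NOTCH2 and 0.29 for HEYL, and in U251M2 between -0.15 for NOTCH2 and 0.23 for HEYL. Each of SF295, DBM2 and U251M2 holds 1 of the low-SD arrays. Without those arrays none of the 10 genes was called in these 3 lines either, but several values moved. In SF295 HEYL was then at -0.03 and DLL4 at -0.21, and NOTCH1, NOTCH3 and NOTCH4 turned to 0.02, 0.14 and 0.01. In DBM2 HEYL was at 0.15, NOTCH2 at -0.00 and HEY2 at -0.01, and DLL4 and HES1 turned to 0.04 and 0.04. In U251M2 NOTCH3 turned to -0.08, while JAG1 stayed at 0.25 and HEY1 was at -0.20.

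Averaged over the 5 lines with equal weights, HEY1, NOTCH3 and JAG1 were called higher and none of the 10 lower. In that comparison 11.6% of all genes were called, 3.38% as higher and 8.23% as lower. The median of the 10 averages was 0.11, beside 0.015 over all genes. HEY1 averaged 0.30 (SE 0.05, limma adjusted p = 0.00097), NOTCH3 0.23 (SE 0.07, 0.0299) and JAG1 0.22 (SE 0.05, 0.0106), while HEY2 averaged 0.15 (SE 0.06, 0.0944). The call of HEY1 rested on U87M2: with that line left out its average was -0.06 (limma adjusted p = 0.548), and those of JAG1 and NOTCH3 were 0.13 (0.276) and 0.14 (0.312), so that 0 of 10 were called by limma, and 0 of the 10 had an unadjusted p under 0.05. Over all genes 0 of 18417 were called with U87M2 left out, and 18.5% had an unadjusted p under 0.05. NOTCH3 also lost its call when any of 9 of the 28 arrays was left out, with an adjusted p of 0.058 at most. Without the 3 low-SD arrays all 3 calls held and HEY2 was called as well, at 0.18 (limma adjusted p = 0.0481). The remaining averages were 0.13 for HEYL, 0.08 for each of NOTCH1, NOTCH4 and HES1, -0.02 for NOTCH2 and -0.04 for DLL4, the last pair at 0.04 and 0.03 without the low-SD arrays.

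The difference between lines in the V-4084 effect was itself tested, and it passed for HEY1 and HEY2, 2 of the 10 genes, with 5.53% of all genes called. For HEY1 the effects were 1.74 in U87M2, 0.05 in SF295, 0.01 in U118, -0.09 in DBM2 and -0.23 in U251M2, a range of 1.97 (limma F test, adjusted p = 1.26e-08). For HEY2 they were 0.69 in U87M2, 0.21 in U118, 0.08 in U251M2, -0.10 in SF295 and -0.13 in DBM2, a range of 0.81 (limma F test, adjusted p = 0.0285). U87M2 was the high line for both. The HEY2 call was kept when 22 of the 28 arrays were left out in turn, and its highest adjusted p was 0.128, without vehicle repeat 3 of U87M2. JAG1 had effects between -0.13 in DBM2 and 0.57 in U87M2, a range of 0.71 that missed the threshold (limma F test, adjusted p = 0.0638), and NOTCH3 a range of 0.62 (0.324). The other 6 genes had ranges between 0.23 for NOTCH4 and 0.75 for HEYL, with adjusted p-values between 0.301 and 0.828. The HEYL range was 0.42 and the NOTCH3 range 0.66 without the low-SD arrays. Without the low-SD arrays the ranges of HEY1, HEY2 and JAG1 were 1.94, 0.71 and 0.63 (limma F test, adjusted p = 3.49e-09, 0.0192 and 0.0641). For the 8 genes that missed the threshold the lines were thus not shown to differ in their response.

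**Figure D3:**
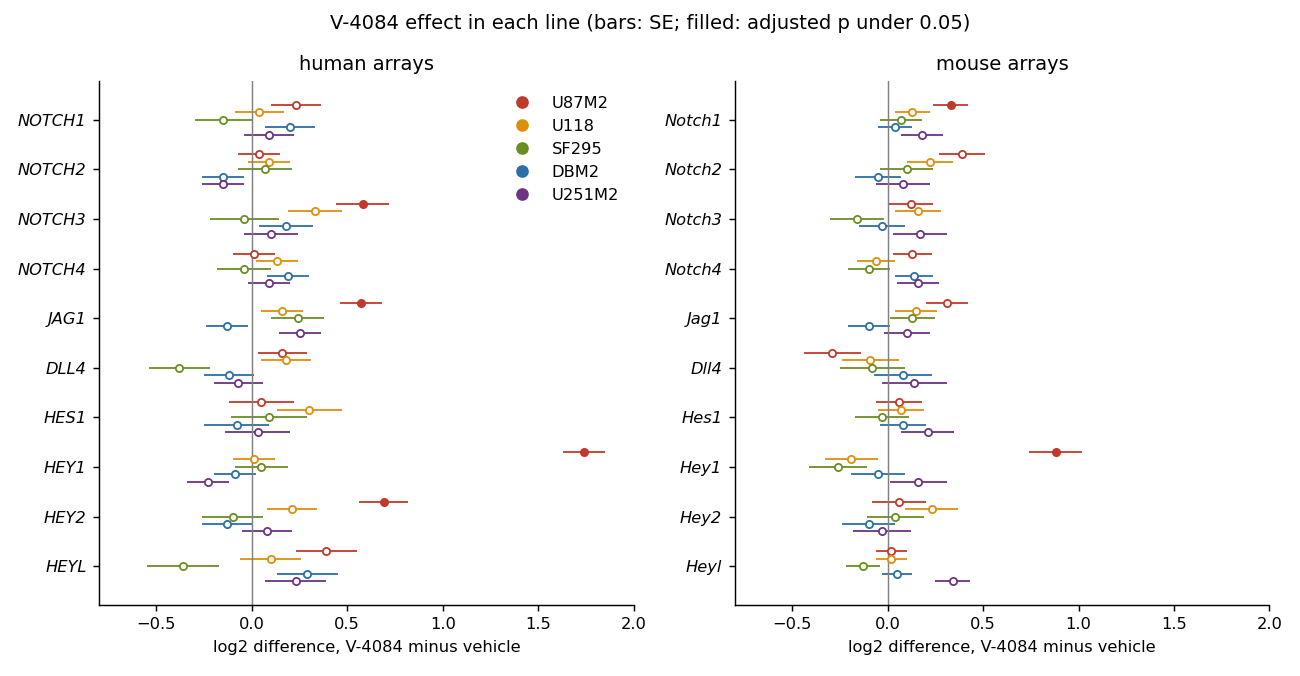
V-4084 minus vehicle difference (log2) of each gene in each line on human arrays (left) and mouse arrays (right), with bars for limma's SE and filled points for an adjusted p under 0.05. The filled points are all of U87M2, and HEY1 reaches 1.74 on human and Hey1 0.88 on mouse arrays.

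On the mouse arrays, 8 of the 10 genes differed between the 5 vehicle groups, all but the receptors Notch1 and Notch3, and 54.3% of all genes were called. The median of the 10 ranges was 0.75, beside 0.39 over all genes. A signal on these arrays can come from host cells and, where a probe matches both species, from tumour cells, and the share of each was not tested. In a tumour, fewer cells of a type and less RNA per cell cannot be told apart.

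Among the mouse ligands, Jag1 was 8.57 ± 0.06 in U251M2 tumours, 8.49 ± 0.10 in DBM2, 7.98 ± 0.17 in SF295, 7.61 ± 0.19 in U118 and 7.34 ± 0.09 in U87M2 (SD, n = 3, and 2 for SF295; range 1.24, limma adjusted p = 3.39e-09). The first pair and the last pair overlapped. The lowest line was U87M2 on both platforms. Dll4, the endothelial ligand, was 8.45 ± 0.06 in U87M2, 7.95 ± 0.12 in U251M2, 7.82 ± 0.46 in U118, 7.69 ± 0.06 in SF295 and 7.23 ± 0.02 in DBM2 (range 1.22, limma adjusted p = 1.2e-05). U87M2 tumours lay highest and DBM2 tumours lowest without overlap with any other line, and between them U118, with 1 array at 8.36, overlapped both U251M2 and SF295, which did not overlap each other. Notch4 was highest in the same tumours, at 8.18 ± 0.11 in U87M2, followed by 7.96 ± 0.08 in U251M2 and 7.69 to 7.76 in the other 3 lines, which overlapped, U118 also with U251M2 (range 0.49, limma adjusted p = 0.00137). Notch2 was highest in U118 tumours, at 8.51 ± 0.22, and lowest in DBM2, at 7.71 ± 0.02 (range 0.80, limma adjusted p = 1.92e-05), which are also the highest and the lowest line for NOTCH2 on human arrays. Vehicle means of Notch1 lay between 7.95 and 8.19 and those of Notch3 between 7.08 and 7.30.

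The mouse targets had their highest vehicle means in U251M2 or DBM2 tumours. Heyl, which is known from vascular smooth muscle, was 7.76 ± 0.11 in U251M2, 7.43 ± 0.06 in DBM2, 7.35 in SF295, 7.33 ± 0.05 in U87M2 and 6.85 ± 0.06 in U118 (range 0.91, limma adjusted p = 1.38e-07). U251M2 lay above and U118 below all the others. Hey1 was 7.80 ± 0.12 in U251M2, 7.48 ± 0.11 in DBM2, 7.19 ± 0.22 in SF295, 7.05 ± 0.22 in U87M2 and 7.04 ± 0.38 in U118 (range 0.76, limma adjusted p = 0.000228), with overlap among the last 3 and between DBM2 and 1 U118 array at 7.41. Hes1 was highest in DBM2, at 7.33 ± 0.25, and lowest in U118, at 6.59 ± 0.15 (range 0.74, limma adjusted p = 0.000192), and every neighbouring pair overlapped. Hey2 was near 5.94 in U251M2 and 5.93 in U87M2, and lowest in SF295 at 5.31 ± 0.29 (range 0.64, limma adjusted p = 0.000717).

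In U87M2 tumours Hey1 and Notch1, 2 of the 10 genes, were called higher with V-4084 and none lower. In this comparison 3.72% of all mouse genes were called, and 2.49% of all as higher. The median of the 10 differences was 0.13, beside 0.001 over all genes. Of the 10, 9 were above 0, as were 10003 of all 19938 genes. Hey1 measured 8.04, 7.89 and 7.88 with V-4084, against 7.03, 6.85 and 7.28 with vehicle. The arrays did not overlap, and the difference was 0.88 (SE 0.14, 1.84-fold, limma adjusted p = 0.00031). Notch1 measured 8.47, 8.42 and 8.16 with V-4084, against 8.01, 8.11 and 7.92 with vehicle. These arrays did not overlap either, by a narrow gap. The difference was 0.33 (SE 0.09, limma adjusted p = 0.0457), and this call held when 13 of the 28 arrays were left out in turn, with an adjusted p of 0.231 at most. It also held in 3 of the 7 other alternatives, and its adjusted p was 0.162 on the arrays of U87M2 alone. Notch2 measured 8.38, 8.18 and 7.96 with V-4084, against 7.84, 7.76 and 7.73 with vehicle (difference 0.39, SE 0.12, limma adjusted p = 0.0741), and its arrays did not overlap. For the ligands, Jag1 measured 7.69, 7.84 and 7.40 with V-4084, against 7.38, 7.40 and 7.23 with vehicle (difference 0.31, SE 0.11, limma adjusted p = 0.119). Dll4 pointed the other way. It measured 8.28, 8.18 and 8.02 with V-4084, against 8.52, 8.39 and 8.44 with vehicle, without overlap and with a difference of -0.29 (SE 0.15, limma adjusted p = 0.374). Notch3 and Notch4 differed by 0.12 and 0.13, and Hes1, Hey2 and Heyl by 0.06, 0.06 and 0.02.

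Cell type markers were measured in the same tumours. Of 10 macrophage genes 5 were called higher and 0 lower, 9 lay above the platform's median gene, and their mean was 8.98 to 9.44 with V-4084 and 8.88 to 8.92 with vehicle. Of 10 fibroblast genes 1 was called higher, and their mean was 8.59 to 9.10 with V-4084 and 7.99 to 8.97 with vehicle. Of 10 endothelial genes 1 was called higher and 1 lower, all 10 lay above the median gene, and their mean was 8.66 to 8.98 with V-4084 and 8.78 to 8.84 with vehicle. The median difference was -0.13 over 10 pericyte genes and -0.72 over 10 skeletal muscle genes, with 0 called in either list. The muscle mean was 6.44 to 6.76 with V-4084 and 6.73 to 7.70 with vehicle. The part of these cell types in the Hey1 and Notch1 differences was not tested.

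**Figure D4:**
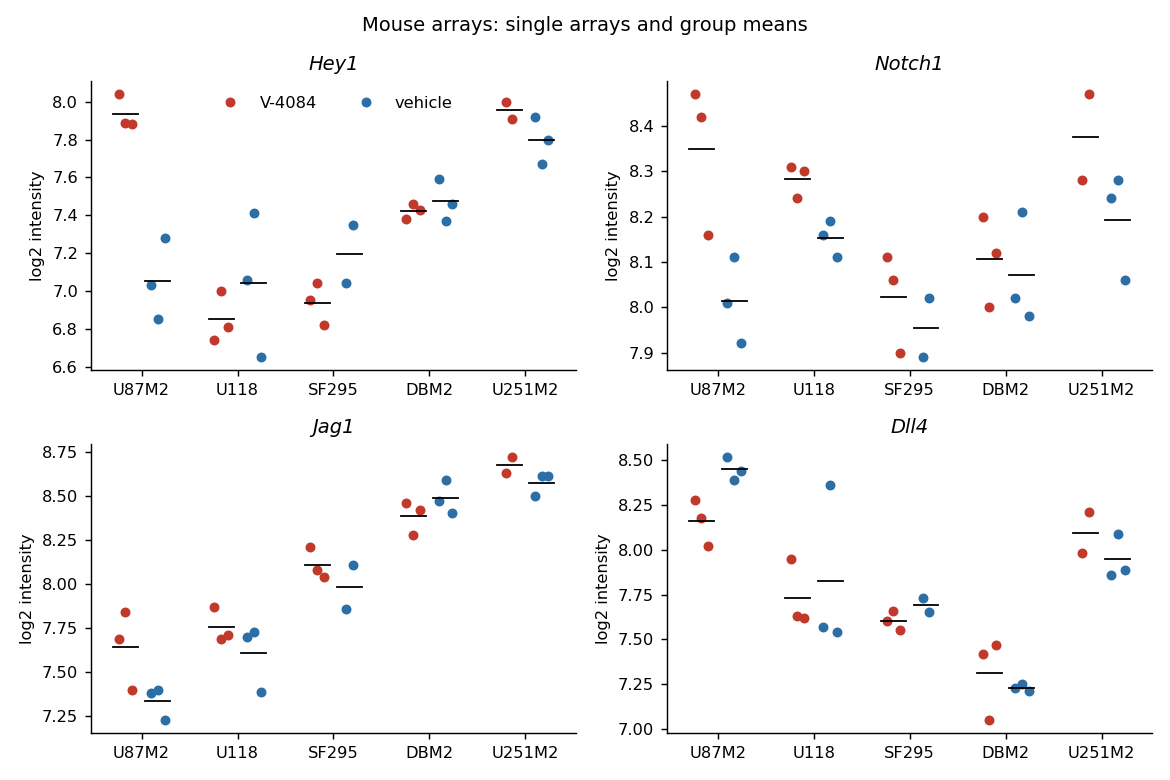
Log2 intensity of Hey1, Notch1, Jag1 and Dll4 on single mouse arrays, with V-4084 left of vehicle in each line and a bar at each group mean. In U87M2 the Hey1 arrays lie between 7.88 and 8.04 with V-4084 and between 6.85 and 7.28 with vehicle, and the Dll4 arrays with V-4084 lie below those with vehicle.

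In the other tumours 0 of the 10 genes were called by limma. Over all genes 0.01% were called in U118, 0.01% in SF295, 0% in DBM2 and 0.0401% in U251M2. In U118, SF295 and DBM2 none of the 10 had an unadjusted p under 0.05, beside 1355, 1341 and 458 of all 19938 genes. In U251M2 1 of the 10 had one, beside 2670 of all genes. That gene was Heyl, which measured 8.06 and 8.15 with V-4084, against 7.88, 7.69 and 7.71 with vehicle (difference 0.34, SE 0.09, limma adjusted p = 0.225). The 10 differences lay between -0.19 for Hey1 and 0.23 for Hey2 in U118, between -0.26 for Hey1 and 0.13 for Jag1 in SF295, and between -0.10 for Jag1 and Hey2 and 0.14 for Notch4 in DBM2. In U251M2 they lay between -0.03 for Hey2 and 0.34 for Heyl. The average over the 5 lines gave 0 calls among the 10, with 0.0702% of all genes called. An unadjusted p under 0.05 was held by 3 of the 10 and by 1923 of all genes. The averages lay between -0.05 for Dll4 and 0.15 for Notch1 and Notch2. The difference between lines passed for Hey1, 1 of the 10, with 0.341% of all genes called. Its effects were 0.88 in U87M2, 0.16 in U251M2, -0.05 in DBM2, -0.19 in U118 and -0.26 in SF295, a range of 1.14 (limma F test, adjusted p = 0.017). The other 9 ranges lay between 0.24 for Hes1 and 0.47 for Heyl, with adjusted p-values between 0.34 and 0.906. The Hey1 call was lost when vehicle repeat 1 or 2 or V-4084 repeat 1 or 2 of U87M2 was left out. U87M2 was thus the high line for Hey1 in tumours as for HEY1 in cells. The platforms were never fitted together, so whether the responses differ in size was not tested.

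Same-numbered arrays of a line and treatment were also compared between platforms, as deviations from the group mean over 27 pairs. None of the 10 genes passed by Pearson correlation, with permutation p-values adjusted over the 10. HEYL deviated in opposite directions with r = -0.610 (permutation p = 0.0101, 0.101 after adjustment), and rho was -0.634 (permutation p = 0.00181, 0.0181 after adjustment). Without the 2 farthest pairs its r was -0.627. Within treatments r was -0.816 over 13 V-4084 pairs and -0.263 over 14 vehicle pairs. HES1 deviated in the same direction with r = 0.570 (permutation p = 0.0262, 0.131 after adjustment) and r = 0.528 without the 2 farthest pairs, and its rho was 0.505 (permutation p = 0.0596, 0.153 after adjustment). For the remaining genes r lay between -0.321 for NOTCH3 and 0.496 for JAG1. The rho of JAG1 was 0.511 (permutation p = 0.0535, 0.153 after adjustment). The labels do not say that a cell array and a tumour array with the same number share anything.

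The other genes of the pathway were counted from a list drawn up by role, with ligands, ligand endocytosis, cleavage, glycosylation, the nuclear complex, co-repressors, inhibitors and turnover, and other HES genes. On human arrays 63 of 69 were measured. For the average V-4084 effect 5 of them, or 7.94%, were called lower and none higher, near the 8.23% of all genes called lower, with a median of 0.005 beside 0.015 over all genes. Of the 5, 3 act in the nuclear complex, namely RBPJ itself at -0.35 (SE 0.09, limma adjusted p = 0.0133), the acetyltransferase KAT2B at -0.21 (SE 0.06, 0.0296) and the co-regulator SNW1 at -0.21 (SE 0.06, 0.0198). The others were the histone deacetylase HDAC1 at -0.27 (SE 0.07, 0.0121) and NUMB, an inhibitor of Notch, at -0.16 (SE 0.05, 0.0412). By limma, 0 of the 63 were called with U87M2 left out, as were 0 of all genes, and 15.9% of the 63 and 18.5% of all genes then had an unadjusted p under 0.05. Without the 3 low-SD arrays 15.9% of the 63 were called, and 11.6% of all genes.

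In U87M2 cells 4 of the 63 were called higher and 6 lower, 15.9% in all and near the 15% of all genes. The 4 higher were the co-repressor TLE4 at 0.56 (SE 0.13, limma adjusted p = 0.00465), DTX4, of the Deltex ubiquitin ligase family, at 0.47, the ligand-like DLK2 at 0.42 and the acetyltransferase CREBBP at 0.36. RBPJ measured 8.97, 8.87 and 8.94 with V-4084, against 9.66, 9.75 and 9.92 with vehicle. The DNA-binding partner of the receptors was thus lower on all 3 V-4084 arrays in the line where HEY1 and HEY2 were higher. Its difference was -0.85 (SE 0.19, limma adjusted p = 0.00236). RBPJ also differed by -0.44 in U118, -0.45 in DBM2, -0.05 in U251M2 and 0.02 in SF295, with none of these called. In DBM2 the low-SD array lay at 6.99. The effects on RBPJ were not shown to differ between lines (range 0.87, limma F test, adjusted p = 0.223). RBPJ has processed pseudogenes, and its probe set may read them too, which was not tested. DNER, a neuronal Notch ligand of the Delta-like type, measured 6.73, 6.46 and 6.68 with V-4084, against 8.19, 7.83 and 8.19 with vehicle. Its difference of -1.44 (SE 0.19, limma adjusted p = 4.27e-06) was the widest among the 63 genes, and its effects differed between lines by 1.77 (limma F test, adjusted p = 0.000709). The others lower in U87M2 were HDAC1 at -0.52, NUMB at -0.43, the endocytic adaptor EPN2 at -0.40 and the co-repressor CTBP2 at -0.40. The count of 10 was 5 without U87M2 V-4084 repeat 1 and 5 without vehicle repeat 3.

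Between the vehicle groups, 38 of the 63 genes, or 60.3%, were called on human arrays, near the 58.4% of all genes, and 44 of 64, or 68.8%, on mouse arrays, against 54.3% of all genes. The widest ranges on human arrays were 6.41 for MFAP5, 3.74 for DNER, 2.96 for MFAP2 and 2.19 for CNTN1, all of which can act as non-canonical ligands. MFAP5 averaged 11.30 in DBM2 cells and 4.89 to 6.64 in the other lines, and DNER averaged 9.97 in SF295 and 8.07 in U87M2, against 6.23 to 6.45 in the other 3. On mouse arrays the widest were 1.27 for Mfap5, 1.06 for the glycosyltransferase Lfng, 1.05 for Rbpj and 0.99 for Dtx3l. In U87M2 tumours 3 of the 64, or 4.69%, were called higher and none lower, with 2.49% of all genes called higher. They were the gamma-secretase subunit Psenen at 0.38 (SE 0.11, limma adjusted p = 0.0477), Crebbp at 0.39 (SE 0.11, 0.0439) and Dtx4 at 0.39 (SE 0.11, 0.0355). This count was between 0 and 3 when single arrays were left out, and 0 without U87M2 V-4084 repeat 1 or 2 or vehicle repeat 3. CREBBP and DTX4 were called higher in U87M2 on both platforms. The mouse average called 0 of the 64 by limma, and 0.0702% of all genes. An unadjusted p under 0.05 was held by 11 of the 64 and by 1923 of all 19938 genes. The smallest p-values among the 64 belonged to Maml2 at 0.15 (limma adjusted p = 0.338) and Psen2 at 0.11 (0.355).

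Genes with a pattern most like that of the 3 widest-ranging Notch genes were found by Pearson's r over the 10 group means, among genes with a range of at least 1, as a description over groups that share lines. On human arrays, out of 6212 candidates, JAG1 was most like COL4A2 (r = 0.974), EIF4E3 (0.971) and FAXC (0.968). HEY1 was most like TSPAN9 (r = 0.969), KCNMB4 (0.960) and ATP13A2 (0.955), and NOTCH3 was most like SLC4A4 (r = 0.989), FAIM2 (0.988) and PKIB (0.979). On mouse arrays, out of 1719 candidates, Jag1 was most like Gpm6b (r = 0.950), Itgav (0.943) and Epha3 (0.939), and Heyl was most like Tenm3 (r = 0.973), Ccn4 (0.970) and Kirrel (0.970). Dll4 was most like 3 genes expressed in endothelial cells, Cd93 (r = 0.945), Cdh5 (0.943) and Adgrf5 (0.934). The Dll4 mean and the mean of the 10 endothelial markers, Cdh5 among them, were 8.16 and 8.83 in U87M2 tumours with V-4084, and 8.45 and 8.81 with vehicle. In DBM2 tumours they were 7.31 and 7.96 with V-4084, and 7.23 and 7.96 with vehicle. For both Dll4 and the endothelial mean, U87M2 lay highest and DBM2 lowest, with V-4084 and with vehicle. The order of U251M2 and U118 differed with vehicle. There Dll4 was at 7.95 in U251M2 and 7.82 in U118, and the endothelial mean at 8.29 and 8.43. In U87M2 the Dll4 mean was lower with V-4084 and the endothelial mean was not. That Dll4 difference was not called (-0.29, SE 0.15, limma adjusted p = 0.374). Cdh5 alone averaged 10.12 with V-4084 and 10.17 with vehicle in these tumours.

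**Figure D5:**
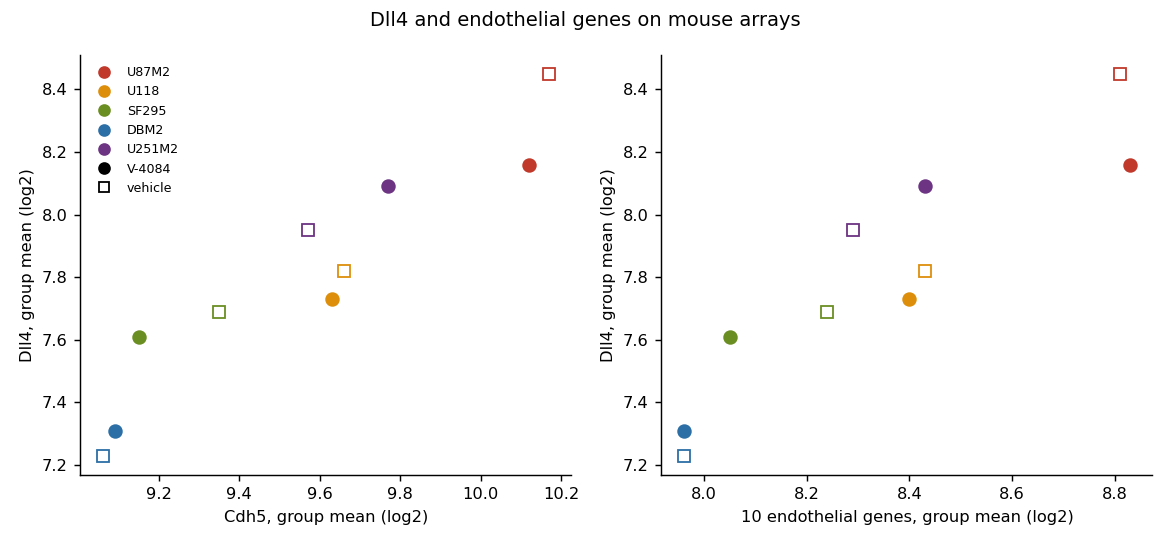
Mean Dll4 level against mean Cdh5 level (left) and against the mean of 10 endothelial marker genes (right) in the 10 groups of mouse arrays, all in log2 intensity, with filled circles for V-4084 and open squares for vehicle. DBM2 tumours lie lowest, with Dll4 at 7.31 and 7.23, and U87M2 tumours highest, at 8.16 and 8.45.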

How the data were processed

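Gene expression was measured on 28 human and 28 mouse Affymetrix whole-transcript arrays. The deposited values are log2 intensities per probe set, and RMA and Partek are named, without versions, in the submitters' processing notes, and arrays have no read depth. Values were used as deposited. Probe sets that name 1 gene were kept (19460 of 33297 human and 21789 of 35556 mouse), and the probe set with the highest mean stood for a gene. A probe set that names NOTCH2 with other genes and 6 that name Notch4 with another gene were thus left out. Arrays were grouped by title. The 10 genes and the gene lists were chosen with earlier results of these data known.

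The model had a mean for each of the 10 groups and was fitted per platform with lmFit and eBayes of limma 3.58.1 (R 4.3.3), which left 18 residual degrees of freedom. Contrasts gave V-4084 minus vehicle in each line, their equal-weight average, an F test between the 5 vehicle groups and an F test between the 5 V-4084 effects. Two-sided p-values were adjusted with the Benjamini-Hochberg method over all genes, and the fit was tested on simulated data. An error of a difference is limma's SE and an error of a level is the SD over arrays. The labels do not say that repeats were separate cultures or animals, so p-values measure the spread between arrays and may be technical. Precision is limited by how few arrays each group has. Correlations between same-numbered human and mouse arrays were tested with 100000 permutations within groups, two-sided. Deviations of same-numbered V-4084 and vehicle arrays of a line correlated at over 0.1 in 3 of 14 human and 3 of 13 mouse pairs. The repeat numbers were therefore not taken as pairs. In U87M2 the correlations were 0.220, 0.011 and 0.318 on human arrays and -0.183, 0.176 and -0.150 on mouse arrays. Those of different-numbered U87M2 arrays lay between -0.300 and 0.150 on human and between -0.147 and 0.280 on mouse arrays.

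Every one of the 10 genes is given in every comparison, by its value or within a range. From the list of other pathway genes, up to 4 called genes in each direction are named for the average and for U87M2, the 4 widest called ranges between vehicle groups, and the 2 with the smallest p where none was called; NUMB in the average, and EPN2 and CTBP2 in U87M2, were named after their values were seen. Promoter sequences are those of RefSeq on GRCh38.p14, and mouse promoters were not analysed here. The alternatives were quantile normalization, scaling to a common median and median absolute deviation, the mean of all probe sets of a gene, genes above the median level only, eBayes with trend and robust settings, a replicate block, fits on the arrays of 1 line, and leaving out single arrays, the 3 low-SD arrays, U87M2 or DBM2.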

Additional observations from a re-analysis of the deposited data

Results flagged for a closer look

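On human arrays the V-4084 effect on HEY1 differed between the 5 lines by 1.97 on the log2 scale, highest in U87M2 and lowest in U251M2, by limma's F test between the effects (adjusted p = 1.26e-08). The effect on HEY2 differed by 0.81, highest in U87M2 and lowest in DBM2 (limma adjusted p = 0.0285). On mouse arrays the effect on Hey1 differed by 1.14, highest in U87M2 and lowest in SF295 tumours (limma adjusted p = 0.017). The 3 arrays labelled DBM2 by title and SF295 by cell line enter both human values. They held DNER at 5.86 to 6.26 and MFAP5 at 10.59 to 11.37, against 5.98 to 6.43 and 11.08 to 11.44 on DBM2 vehicle arrays. SF295 arrays held DNER at 10.25 to 10.33 with V-4084 and 9.72 to 10.22 with vehicle, and MFAP5 at 6.39 to 6.45 with V-4084 and 5.96 to 6.18 with vehicle.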

How the results depend on the processing

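Of the results for single Notch genes, 1150 kept their side of the threshold under alternatives other than leaving out single arrays, 9 gained and 9 lost a call, and 2 reversed with a call gained or lost. Of the 1150, 33 were called in neither setting and changed sign, the widest such V-4084 difference being JAG1 in DBM2, at 0.37 after scaling to a common median and median absolute deviation against -0.13. The reversals were the average of NOTCH2 on human arrays, which was 0.18 and called after scaling to a common median and median absolute deviation, and that of HEY1, which was -0.06 with U87M2 left out. With single arrays left out, 4700 kept their side of the threshold, 47 of them with the other sign, 15 gained and 35 lost a call. For the human average, U87M2 left out gave 0 Notch genes and 0 other pathway genes. The other pathway genes numbered 3 with DBM2 left out, 3 with the replicate block, 10 without the low-SD arrays, and 3 to 10 with single arrays left out. With the replicate block, the difference between lines called 1 Notch gene on human arrays, where HEY2 had an adjusted p of 0.123, and 0 on mouse arrays, where that of Hey1 was 0.062. With single arrays left out these counts were 1 to 4 and 0 to 1. In U87M2 tumours 1 Notch gene was called after quantile normalization, with trend and robust settings, with the replicate block and on the arrays of U87M2 alone, Hey1 each time with Notch1 lost, and 1 to 4 with single arrays left out. The other pathway genes there numbered 5 after quantile normalization, 5 among genes above the median level, 0 with the replicate block, 0 on the arrays of U87M2 alone and 0 to 3 with single arrays left out. In U87M2 cells they numbered 5 to 11 with single arrays left out. In SF295 cells 0 to 1 Notch genes were called, the 1 being HEYL without V-4084 repeat 1, where the lone V-4084 array is assumed to vary like the other groups. Without that array 4 Notch genes differed between lines on human arrays. Correlations between platforms passed for 0 to 2 genes. The replicate block was not run for vehicle groups. The cause of each change was not tested. The counts for the other comparisons stayed within 1.5 times. Groups of 2 or 3 arrays limit what could be called, and the signal over background of dim probe sets is not given in the deposited values.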
